A study of Mus musculus with 8 samples.

Results

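The genes described here encode the proteins of the cytosolic ribosome. They were chosen by name: a symbol that starts with Rpl or Rps and a digit, or is Rpsa, Rplp0, Rplp1 or Rplp2, without symbols that hold -ps and without the S6 kinase genes. The rule found 93 of the 52636 genes in the count tables. RefSeq lists 88 of them as protein-coding and 5 as pseudogenes (Rps4l, Rps12l1, Rpl6l, Rps3a2 and Rps3a3), and 1 of the 88, Rps19bp1, is a binding protein of the S19 protein and no ribosomal protein itself. All 93 are accounted for below; 90 passed the filter on low counts. Rpl24, Rpl32l and Rpl36al did not, with at most 20 counts in any library.

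The ribosome is built from a large and a small subunit, each a scaffold of ribosomal RNA that carries its own set of proteins, named with L and S. Each protein is needed in the same number of copies, except the acidic stalk proteins P1 and P2, and their mRNAs are among the most abundant in growing cells. Most start with a C followed by a run of pyrimidines, the 5′ terminal oligopyrimidine (TOP) tract, through which the kinase complex mTORC1 controls their translation. The mouse genome holds many processed copies of these genes, most of them named with -ps, so short reads cannot always be given to the gene they came from.

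RNA-seq and RNA polymerase II HiChIP were made from E14 mouse embryonic stem cells (ESCs), a line grown from the blastocyst, as unmodified cells (WT) and as KLF4-KO cells, which lack the transcription factor KLF4. The RNA-seq comprised 2 WT libraries, numbered 1 and 2, and 2 KO libraries, whose columns carry the letters B and F. HiChIP ligates nearby pieces of chromatin, enriches those bound by 1 protein, and reads each ligated pair as a paired-end tag (PET). It is deposited as 1 pooled file per genotype. The labels give all samples the same 2 media, both on gelatin with 15% serum. One holds 10 ng/mL LIF with 1 µM of the MEK inhibitor PD0325901 and 3 µM of the GSK inhibitor CHIR99021, and the other 1000 U/mL LIF. The clonal origin of the KO cells is not stated in the labels. The libraries held 8287497 to 9762190 gene counts. Klf4, the targeted gene, was counted 2882 and 2421 times in WT and never in KO. The 8 ESC markers summed to 4836 to 5711 CPM, which are counts scaled to a common library size. Of 10 fibroblast and feeder markers 3 passed the filter, all 10 summed to 17.9 to 25.8 CPM, and Postn, Lum and S100a4 were at 0 in every library. Of the tested primitive endoderm, trophoblast and neural markers, 2 of 4, 1 of 5 and 2 of 6 were called higher in KO and 1 neural marker lower. Over all genes tested, 2.96% were called higher and 5.34% lower. The part of these markers in the results was not tested.

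Some short sequences, which the naming rule did not use, were more frequent at start sites of the family than at other listed ones. RefSeq (GRCm38.p6) gave promoters of 300 bases for 68 of the 93 genes, with 80 start sites. The ETS-type motif CCGGAAG, read on both strands, was in 33.8% of these promoters and in 8.79% of the 32737 other promoters of the same length. A run of at least 5 pyrimidines that begins with C within 5 bases of the start site was found at 41.2% of the starts, against 18.3% of the others. GGGCGG was in 58.8% against 35.6%, AAGATGG in 15.0% against 6.31% and TATAAA in 10.0% against 13.6%. GGGTGG was in 25% against 31.5%, and GGGTGTGG in 5.00% against 3.56%. Every share is a description of letters in a window, not of bound sites. The other promoters were not chosen by expression, so no excess is shown to be particular to the family.

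The 7 windows below run from 60 bases before the RefSeq start site to 15 bases from it. Capitals mark CCGGAAG on either strand and the pyrimidine run. Rps24, Rpl37a and Rpl11 are shown because they took a larger share of the family's counts in both KO libraries, and Rps28 and Rps10 because they took a smaller one. Rps18 is shown for its contacts with Rps28, and Rps6 as the target of the S6 kinases.
Rps24, chr14:24490618-24490692, plus strand: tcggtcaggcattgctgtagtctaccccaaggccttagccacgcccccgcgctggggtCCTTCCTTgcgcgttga
Rpl37a, chr1:72711200-72711274, plus strand: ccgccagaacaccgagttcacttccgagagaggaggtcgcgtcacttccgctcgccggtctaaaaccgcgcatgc
Rpl11, chr4:136053379-136053453, minus strand: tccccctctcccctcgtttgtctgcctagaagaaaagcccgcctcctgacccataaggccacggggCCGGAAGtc
Rps28, chr17:33824548-33824622, minus strand: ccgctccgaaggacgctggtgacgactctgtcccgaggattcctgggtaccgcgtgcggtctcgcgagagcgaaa
Rps18, chr17:33955651-33955725, minus strand: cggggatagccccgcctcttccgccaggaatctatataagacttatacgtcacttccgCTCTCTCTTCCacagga
Rps10, chr17:27635230-27635304, minus strand: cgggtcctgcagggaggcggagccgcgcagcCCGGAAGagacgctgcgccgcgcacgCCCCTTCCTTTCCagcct
Rps6, chr4:86857353-86857427, minus strand: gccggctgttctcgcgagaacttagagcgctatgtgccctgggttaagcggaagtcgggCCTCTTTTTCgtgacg
Rps10 holds both features in this window, Rps24, Rps18 and Rps6 the pyrimidine run alone, and Rpl11 the ETS-type motif alone. Rpl37a and Rps28 hold neither. Over tested genes with CCGGAAG the median log2 fold change (KO minus WT) was -0.37 (26 genes), and over those without it -0.33 (39 genes). For the pyrimidine run the medians were -0.38 (30 genes) and -0.35 (35 genes). For GGGTGTGG they were -0.87 (3 genes: Rps19, Rpl27 and Rpl3l) and -0.35 (62 genes), and for the shorter GGGTGG -0.34 (19 genes) and -0.36 (46 genes). For GGGCGG they were -0.35 (40 genes) and -0.33 (25 genes).

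The family moved as a block between libraries, and the libraries of 1 genotype differed more than the genotypes. Its 93 genes took 7.56% of all gene counts in WT replicate 1 and 12.4% in WT replicate 2. They took 9.12% in KO library B and 6.45% in KO library F. The values were 9.97% ± 3.41 (SD, n = 2) in WT and 7.79% ± 1.88 (SD, n = 2) in KO, and the groups overlap because WT replicate 1 lies between the KO libraries. A comparison of 2 against 2 libraries cannot reach an exact two-sided permutation p below 0.333. Of the 90 genes tested, 86 had their highest CPM in WT replicate 2, against 30.8% of all genes tested, and 72 had their lowest in KO library F, against 25.6%. Both held for 70 genes, against 16.8% of all genes.

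**Figure D1:**
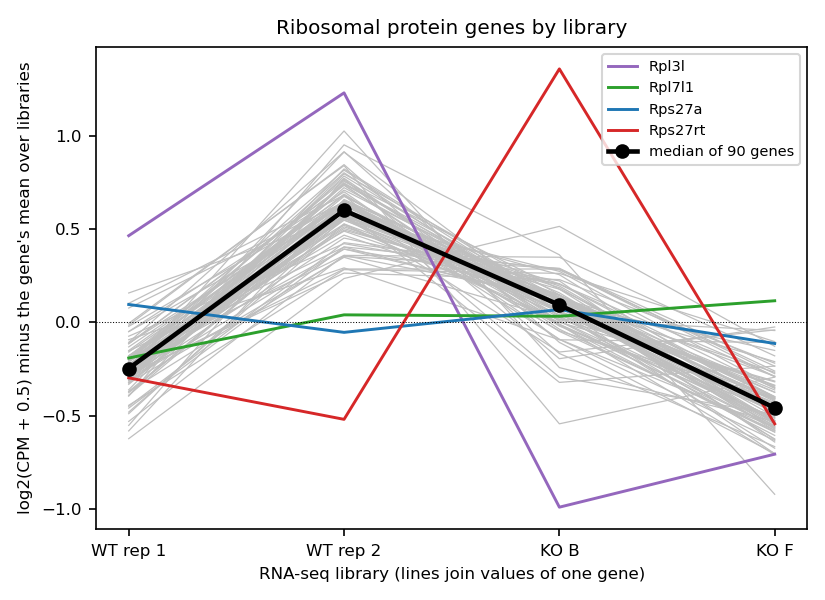
Level of each of the 90 tested ribosomal protein genes in the 4 libraries, as log2(CPM + 0.5) minus the gene's mean over libraries (y axis), with 1 grey line per gene, 4 genes in colour and the median in black. The median runs from -0.25 in WT replicate 1 to 0.60 in WT replicate 2, 0.09 in KO library B and -0.46 in KO library F, and Rps27a, Rpl7l1 and Rps27rt leave it.

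Between WT replicates 1 and 2 the median gene differed by 0.85 on the log2 CPM scale, and 85 of the 87 genes with at least 100 counts in every library were higher in replicate 2. Between KO libraries B and F the median difference was 0.54, with 5 of 87 higher in F. Both subunits took part: the large-subunit genes took 4.02% and 6.56% of gene counts in WT, then 4.97% and 3.48% in KO, and the small-subunit genes 3.53%, 5.81%, 4.14% and 2.97% in the same order. WT replicate 2 also had the most gene counts (9762190) and the largest shares of records assigned to several genes (1.43%, against 0.959% to 1.11% in the others), with several alignments (18.9%, against 17.5% to 18.0%) and unaligned (2.93%, against 1.97% to 2.43%). Their part in the level of the family was not tested.

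In the KO against WT test no member passed a false discovery rate of 0.05 in either direction, where 8.30% of the 15517 genes tested did (460 higher, or 2.96%, and 828 lower, or 5.34%; edgeR quasi-likelihood test, Benjamini-Hochberg adjusted). At an unadjusted p under 0.05 there were 5 of the 90 members, where 24.4% of all genes were, and DESeq2 called 1, Rpl3l, where it called 10.6% of all genes. Log2 fold changes were below 0 for 83 members and above 0 for 7, with a median of -0.39 where the median of all genes was -0.00. The 95% interval held 0 for 85 of the 90. The median standard error was 0.35, so these libraries leave a wide range of changes undetected.

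**Figure D2:**
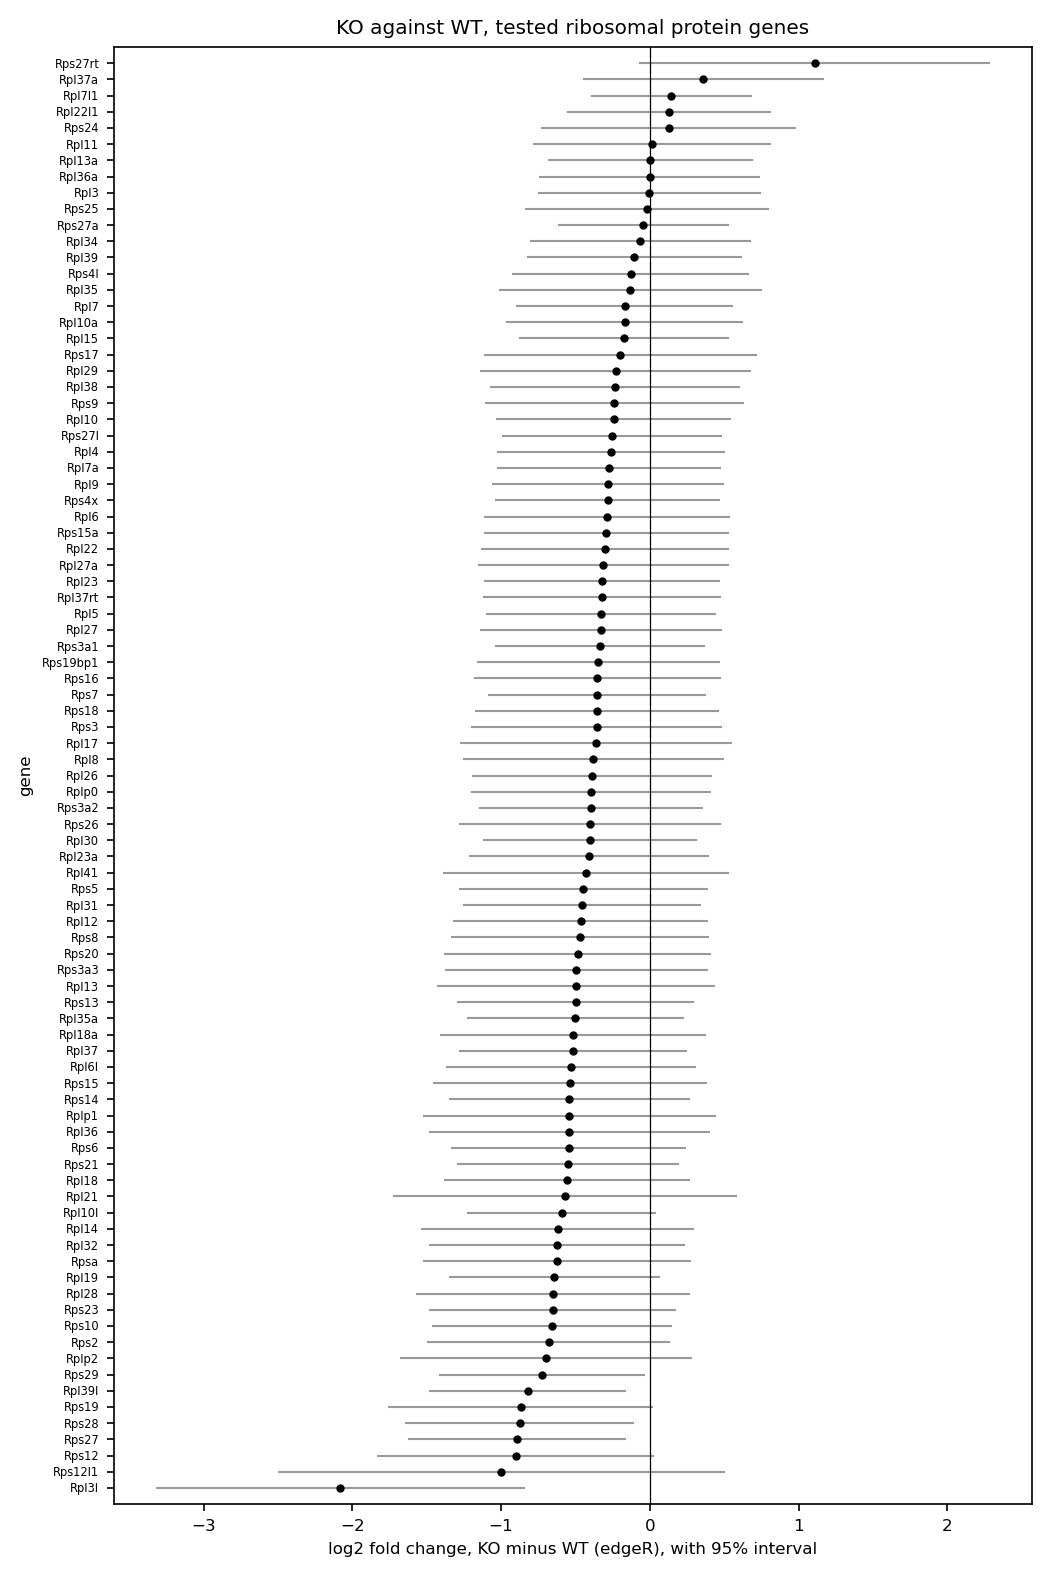
Log2 fold change, KO minus WT, of tested ribosomal protein genes (points, x axis) with its 95% interval from edgeR (lines), sorted from lowest to highest. Values run from -2.08 for Rpl3l to 1.11 for Rps27rt, and most intervals hold 0.

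The direction of that median rested on WT replicate 2. Without it the median was 0.07 and no member was called, where 9.54% of all genes were. Without WT replicate 1 the median was -0.75, and 25 members passed lower and 1 higher (91 tested), where 8.41% and 7.09% of all genes did. Without KO library B it was -0.68 with none called (6.14% of all genes), and without KO library F -0.15 with 1 called, higher in KO (6.19% of all genes). The member called in the last case and called higher without WT replicate 1 was Rps27rt.

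By role, of the 4 members with the highest mean CPM, Rpl4, Rpsa and Rps2 had WT replicate 2 highest and KO library F lowest, and Rps24 did not have this order. Levels per gene are in CPM, which are not corrected for transcript length, so they are compared between libraries and not between genes. Rpl4, a core protein of the exit tunnel, had 3225 and 4746 CPM in WT replicates 1 and 2, and 3872 and 2791 CPM in KO (library B first, then F, here and below). Rpsa, the laminin receptor and a small-subunit protein, had 2993 and 5767 CPM in WT and 3418 and 2264 in KO. Rps2 had 3047 and 5120 CPM in WT and 2960 and 2135 in KO. Rps24 had 1849 and 3426 CPM in WT and 3402 and 2359 in KO, so that WT replicate 1 was its lowest library. In Rps2 both KO libraries were below both WT libraries, and in Rpl4, Rpsa and Rps24 the groups overlapped. Their log2 fold changes were -0.26 ± 0.33 (SE) for Rpl4, -0.62 ± 0.39 for Rpsa, -0.68 ± 0.36 for Rps2 and 0.13 ± 0.37 for Rps24.

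The stalk, which recruits the GTPase factors, is formed by P0, P1 and P2. Rplp0 had 1267 and 2188 CPM in WT and 1564 and 1068 in KO. Rplp1 had 1847 and 4195 CPM in WT and 2556 and 1598 in KO, and Rplp2 810 and 1867 in WT and 1027 and 621 in KO. For each of the 3 genes WT replicate 1 lay between the KO libraries, and log2 fold changes were -0.39, -0.54 and -0.70. The spread within WT was wider for the acidic proteins P1 and P2 than for P0.

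Rpl5 and Rpl11, which join the 5S RNA and bind MDM2 when assembly is disturbed, both had WT replicate 2 as their highest library. Rpl5 had 1665 and 2644 CPM in WT and 2011 and 1421 in KO, with a log2 fold change of -0.33 ± 0.34 (SE). Rpl11 had 575 and 1048 CPM in WT and 966 and 672 in KO, with a log2 fold change of 0.01 ± 0.35. Neither passed the test.

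Rps6, the substrate of the S6 kinases, had 1616 and 2706 CPM in WT and 1733 and 1226 in KO (log2 fold change -0.55 ± 0.35, SE). Rps19, mutated in Diamond-Blackfan anaemia, had 994 and 2018 CPM in WT and 994 and 658 in KO (-0.87 ± 0.39). Rps27a is made as a fusion with ubiquitin, and it did not follow the block. It had 709 and 639 CPM in WT and 695 and 613 in KO (-0.04 ± 0.25), so that WT replicate 2 was not its highest library.

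The lowest log2 fold change was that of Rpl3l, a muscle paralog of Rpl3 that is scarce here. The WT libraries held 36 and 63 of its counts and the KO libraries 9 and 12, so both KO libraries lay below both WT libraries. Its log2 fold change was -2.08 ± 0.54 (SE; edgeR adjusted p = 0.0534), with DESeq2 at an adjusted p of 0.0493. Rps12l1, a pseudogene, had 12, 17, 9 and 4 counts in the same order (-0.997 ± 0.66). Rps12 had 630 and 1533 CPM in WT and 636 and 521 in KO (-0.90 ± 0.41), and its groups overlapped. Rps28 had 2241 and 3978 counts in WT and 1789 and 1279 in KO (-0.87 ± 0.34). Rps27 had 339 and 610 CPM in WT and 233 and 278 in KO (-0.89 ± 0.32). In Rps28 and Rps27 the groups did not overlap, as in 11 members in all, each lower in KO. No member was higher without overlap. Over all genes tested, 27.5% were lower and 26.0% higher without overlap.

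The highest log2 fold change was that of Rps27rt, a retrotransposed copy of Rps27 that lies inside Osbpl10. It had 863 and 722 counts in WT, 2421 in KO library B and 652 in KO library F, so 1 library carried the difference (1.11 ± 0.51, SE; edgeR adjusted p = 0.233). Rps27 itself was lowest in library B, with 3193, 5608, 1949 and 2345 counts in the same order. Summed, Rps27 and Rps27rt took 0.595% and 0.524% of the family's counts in WT and 0.567% and 0.560% in KO, and the log2 fold change of the sum was -0.35 ± 0.32 (edgeR adjusted p = 0.556). The other high values were Rpl37a at 0.36 ± 0.35, Rpl7l1 at 0.15 ± 0.24 and Rpl22l1 at 0.13 ± 0.30, beside Rps24 above.

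Paralogs were set against their parent genes within each library, which removes the level of the family only where the paralog follows it. Rpl39l, the copy that replaces Rpl39 in male germ cells, stood at 14.1% and 13.0% of the counts of Rpl39 in WT and at 7.47% and 9.16% in KO. Rpl22l1 stood at 20.4% and 18.5% of Rpl22 in WT and at 23.6% and 29.0% in KO. In both pairs the groups did not overlap, in opposite directions. Nor did they overlap for Rpl3l and Rpl36al, lower in KO, or for Rps27l and Rps27rt, higher in KO. Only Rpl7l1, Rpl10l and Rps4l had overlapping groups, so the absence of overlap does not set Rpl39l and Rpl22l1 apart. In CPM, Rpl39l had 48.9 and 73.3 in WT and 37.0 and 32.2 in KO, with a log2 fold change of -0.82 ± 0.29 (SE; edgeR adjusted p = 0.126).

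Rpl10l, a retrocopy of the X-linked Rpl10 known from the testis, stood at 25.5% and 23.5% of its parent in WT and at 15.4% and 24.5% in KO, with overlapping groups. Rps4l stood at 23.4% and 29.5% of Rps4x in WT and 28.8% and 32.2% in KO, again with overlap. Their log2 fold changes were -0.59 ± 0.28 (SE) for Rpl10l and -0.13 ± 0.35 for Rps4l. Rpl7l1, known from ribosome assembly, had 261 and 307 CPM in WT and 305 and 323 in KO and did not follow the block. Rps27l stood at 51.3% and 49.9% of Rps27 in WT and at 100% and 60.3% in KO, where the low Rps27 count of library B enters the ratio. Among the parent genes, Rps27 was at -0.89, as above, and the log2 fold changes of the other 7 (Rpl3, Rpl7, Rpl10, Rpl22, Rpl36a, Rpl39 and Rps4x) lay between -0.30 and -0.00. None passed the test.

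Each gene's share of the summed family counts shows the make-up of the family without its overall level. By that measure 26 of the 90 genes were higher and 28 lower in KO without overlap. Among all genes tested, 27.0% and 12.8% were so by the same denominator, and 26.0% and 27.5% in CPM. With library size set to the summed family counts, the median log2 fold change was -0.01 for members and 0.32 for all genes. This denominator centres the members and moves other genes up, which lowers the 12.8%. The shares in CPM are another measure, so neither is a matched background for the members. With 2 libraries a group this is a description, and the genes below were chosen after their values were seen.

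Rps24, a small-subunit protein, took 2.55% and 2.61% of the family's counts in WT and 3.69% and 3.72% in KO. Rpl37a took 0.389% in both WT libraries and 0.672% and 0.627% in KO. Rpl11 took 0.794% and 0.797% in WT and 1.05% and 1.06% in KO. Rps25, which viral internal entry sites are known to need, took 0.962% and 0.973% in WT and 1.25% in both KO libraries. In these 4 genes the libraries of a genotype were closer to each other than to any library of the other genotype.

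In the other direction, Rps28 took 0.329% in both WT libraries and 0.232% and 0.239% in KO. Rps19 took 1.37% and 1.54% in WT and 1.08% and 1.04% in KO. Rps23, a protein of the decoding centre, took 1.51% and 1.498% in WT and 1.27% and 1.23% in KO. Rps10 took 1.00% and 0.993% in WT and 0.828% and 0.823% in KO. With each library's size set to its summed family counts, edgeR called none of the 90 members and 0.4% of all genes, and the spread between libraries, as the common biological coefficient of variation, was 0.437 where it was 0.257 before.

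**Figure D3:**
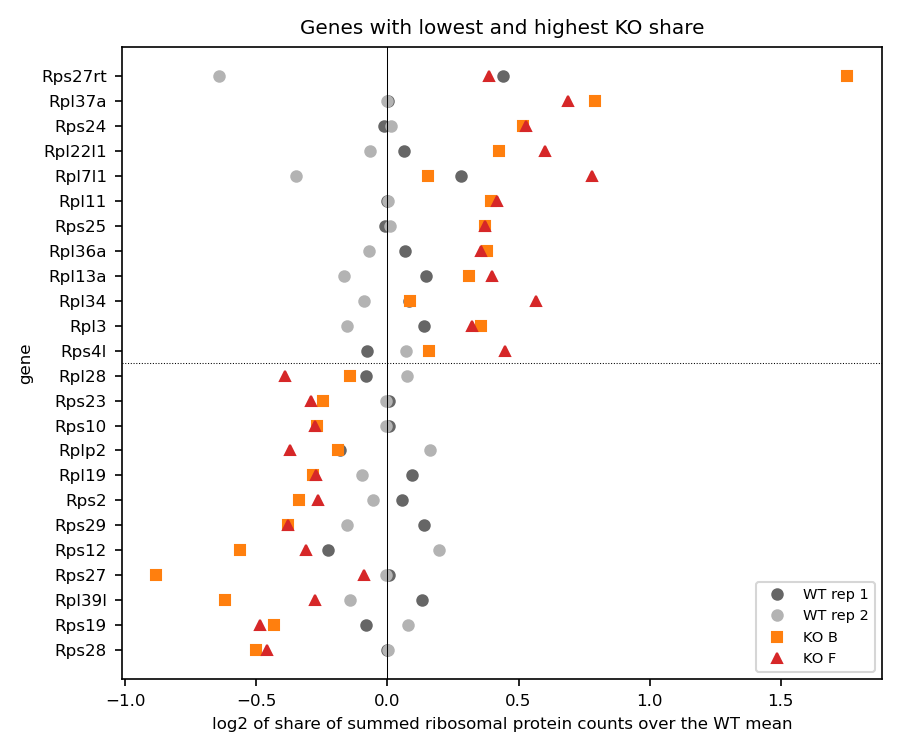
Share of the summed ribosomal protein counts for the 12 genes with the lowest and the 12 with the highest mean KO share relative to WT, among 87 genes with at least 100 counts in every library (x axis: log2 of the share over the WT mean; 1 symbol per library). Rps24, Rpl11, Rps25, Rps28 and Rps10 have tight pairs of symbols within each genotype, and Rps27rt and Rps27 are spread by KO library B.

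Near-identical copies make single values uncertain. The tables list 290 genes named with -ps as copies of members, and 61 of the 93 members have such a copy. In some families the copy holds most of the counts. Rpl34 had 167, 263, 189 and 183 counts in WT replicates 1 and 2 and KO libraries B and F, and Rpl34-ps1 had 5568, 9751, 7325 and 5004. The 85 tested copies followed the members, with a median of -0.26, 0.58, 0.06 and -0.36 in the same order on the centred log2 scale. Spans of other genes, snoRNAs aside, overlap 23 members, and the labels do not state whether the counting used strand, so reads of such pairs cannot be told apart.

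Other genes of translation were summarised by lists. Fau and Rack1, ribosomal proteins outside the naming rule, were likewise highest in WT replicate 2 and lowest in KO library F. Fau had 476 and 983 CPM in WT and 646 and 438 in KO, and Rack1 had 2406 and 3942 in WT and 2523 and 1791 in KO. Neither was called. Of 80 tested mitochondrial ribosomal protein genes, 78 were higher in WT replicate 2 than in replicate 1 (all genes: 50.1%), with a median difference of 0.63. Their median log2 fold change was -0.01, and 1 rose in KO, Mrps23. It had 1.49 and 2.50 CPM in WT and 10.3 and 27.1 in KO (edgeR adjusted p = 0.0143).

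Genes for making ribosomes had another order of libraries. The medians of 76 genes of ribosome assembly and rRNA processing were -0.23 and -0.07 in the WT libraries and 0.15 and 0.20 in the KO libraries, with a median log2 fold change of 0.30 where the members had -0.39. None of the 76 passed the test, nor did any of 17 genes of RNA polymerase I transcription, 21 snoRNA hosts or 23 genes of ribosome surveillance. At an unadjusted p under 0.05 these lists had 13, 1, 4 and 3 genes, each a smaller share than the 24.4% of all genes, and DESeq2 called some of them, such as the helicase Ddx18 with 125 and 143 CPM in WT and 248 and 245 in KO (edgeR adjusted p = 0.0535).

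Among 39 genes of mTORC1 and TOP control, 3 fell and 1 rose, where 5.34% and 2.96% of all genes did, so the list's count is near the background. The same holds for the single calls in the elongation and initiation lists below. Rragd, a Rag GTPase that brings mTORC1 to the lysosome, had 57.2 and 37.5 CPM in WT and 15.8 and 12.3 in KO (edgeR adjusted p = 0.0165). Ddit4l and Sesn2, which restrain mTORC1, fell, with log2 fold changes of -1.72 ± 0.33 and -1.04 ± 0.25 (SE). Rragb, another Rag GTPase, rose by 1.39 ± 0.30. Sesn2 lost its call without KO library B or without F (edgeR adjusted p = 0.404 and 0.158), and Rragb without B (0.0912). Eef2k, the kinase that inhibits elongation factor 2, was the only call of 16 elongation and release genes, with 64.9 and 56.8 CPM in WT and 23.6 and 20.1 in KO (edgeR adjusted p = 0.0151, and 0.101 without KO library F). Eif2b5, a subunit of the exchange factor of eIF2, was the only call of 37 initiation genes, at -1.09 ± 0.25, and lost it without KO library B or without F (edgeR adjusted p = 0.255 to 0.261).

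**Figure D4:**
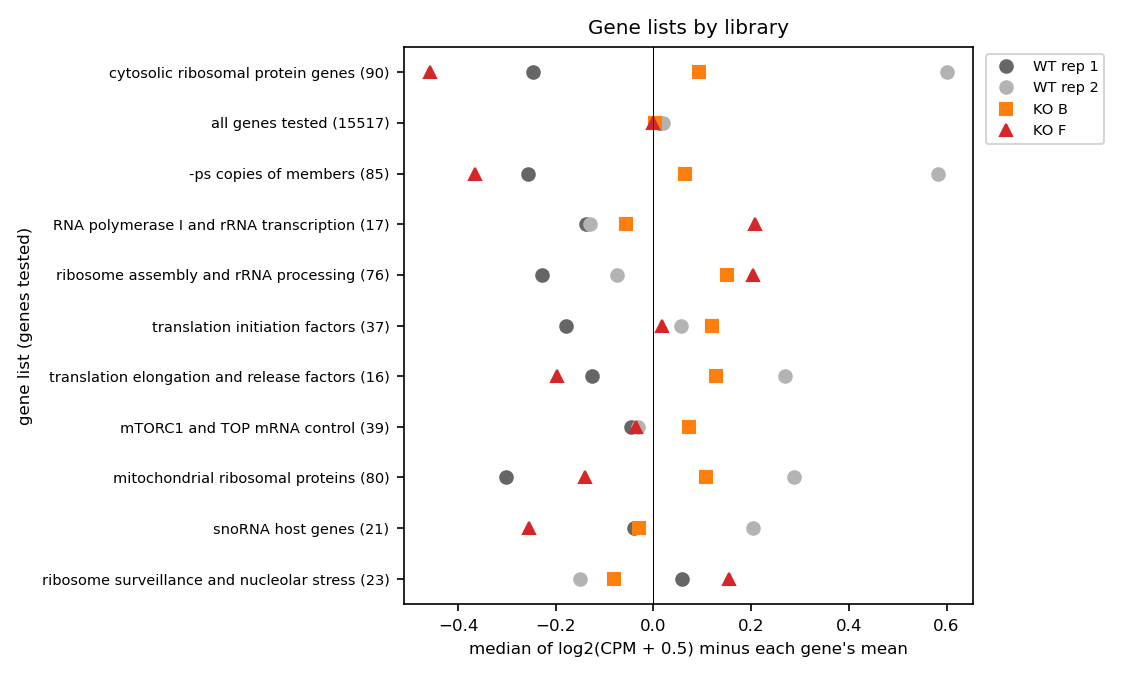
Median centred log2 level of each gene list in each library (x axis: log2(CPM + 0.5) minus each gene's mean over libraries; 1 symbol per library; number of genes tested in brackets). The ribosomal protein genes and their -ps copies have WT replicate 2 at 0.60 and 0.58 and KO library F at -0.46 and -0.36, and the list of assembly genes has both KO libraries above both WT libraries.

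Promoters of the family lay in RNA polymerase II anchors in nearly all cases. The WT pool held 35189 PETs between 8373 anchors of a median 1999 bp, and the KO pool 401726 PETs between 18293 anchors of a median 2932 bp. There is 1 pool per genotype, so no difference between them has a replicate check. Of the 68 genes with a RefSeq start site in the promoter table, 62 had it in an anchor of the WT pool (91.2%, Clopper-Pearson 95% interval 81.8% to 96.7%) and 64 in the KO pool (94.1%, 85.6% to 98.4%). The intervals cover counting error only. Of the other genes tested 49.2% and 71.7% did. Of the 232 others at or above the members' lower quartile of CPM, 378, it was 92.7% and 97.4%. The members were not cut at that level, so the sets are not matched for abundance. Every member with a listed start outside an anchor had a mean CPM below 378. These were Rpl32l, Rpl37rt, Rpl3l and Rps27rt in both pools, and Rpl10l and Rpl39l in WT alone.

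PETs at the start anchors of members made up 5.05% of all PETs in WT (4.82% to 5.28%) and 1.64% in KO (1.60% to 1.68%). For the abundant other genes the shares were 11.4% and 8.64%. Between anchors present in both pools, members had 5.66% in WT and 3.26% in KO, and the abundant others 12.8% and 16.2%. Members thus had a smaller share of PETs in the KO pool by both counts, while the abundant others had a smaller one by the first count and a larger one by the second. The start anchors of members covered 234 kb in WT and 449 kb in KO. Depth, anchor number and anchor width differ between the pools together with genotype, and these cannot be told apart.

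**Figure D5:**
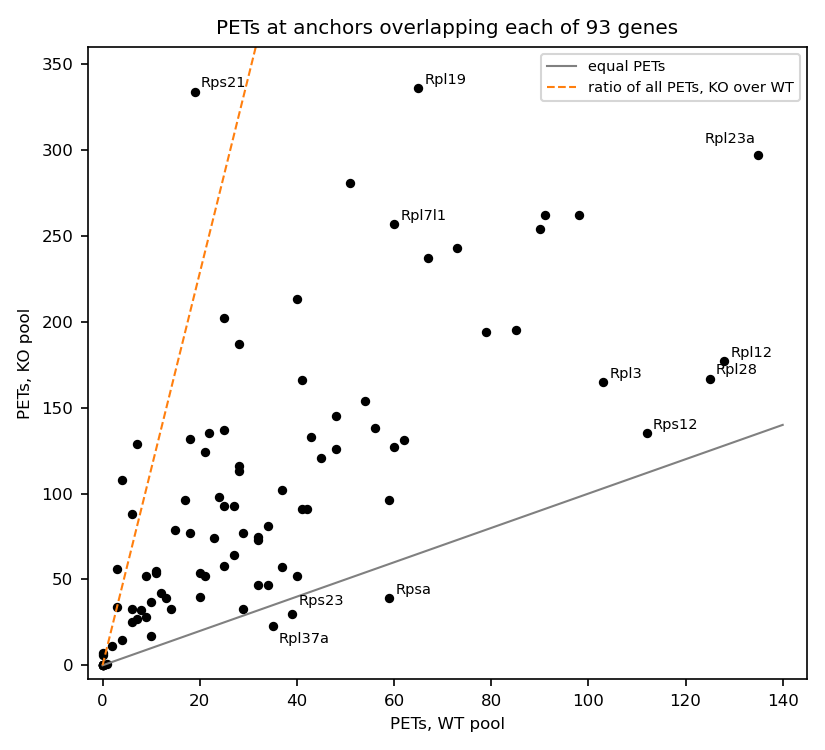
PETs at anchors that overlap each of the 93 genes, in the WT pool (x axis) and the KO pool (y axis), with 1 point per gene. The grey line marks equal PETs and the dashed line the ratio of all PETs in the pools. Rpsa, Rps23 and Rpl37a lie under the grey line. Rps21, Rps14, Rps19bp1, Rps7, Rps4l, Rpl10l and Rpl39l are left of the dashed one.

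By the whole gene span, 83 of the 93 genes lay in an anchor in both pools. That share was not computed for other genes, so it is not shown to be particular to the family. Rpl10l and Rpl39l did so in the KO pool only, with 6 and 7 PETs. The other 8, in neither pool, were Rpl3l, Rpl32l, Rpl6l, Rpl37rt, Rps12l1, Rps27rt, Rps3a2 and Rps3a3. All 8 are paralogs, retrocopies or pseudogenes, and some of them held many counts: Rps3a2 had 7547 and 12244 counts in WT and 7815 and 5775 in KO. Rps3a1, the functional gene, had 3276, 5363, 3430 and 2759 counts in the same order and 10 and 37 PETs in the WT and KO pools.

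In the KO pool Rpl19 had the most PETs (336, against 65 in WT), followed by Rps21 (334, against 19), Rpl23a (297, against 135), Rpl23 (281, against 51) and Rpl13a (262, against 91). In the WT pool it was Rpl23a with 135, Rpl12 with 128, Rpl28 with 125, Rps12 with 112 and Rpl3 with 103. The WT pool held 35189 PETs and the KO pool 401726, so more PETs in KO does not set a gene apart. By counts not scaled to depth, PETs were more numerous in the KO pool for 81 genes and fewer for 3: Rpsa had 59 in WT and 39 in KO, Rps23 had 39 and 30, and Rpl37a had 35 and 23. Rpl37a, whose share of the family's counts was higher in KO, was thus among the genes with fewer PETs there.

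Single contacts of members with neighbouring genes held more PETs than contacts between members. The largest single contacts in KO were of Rps21 with an anchor in Lama5 (67 PETs, 33.6 kb away) and of Rpl7l1 with an anchor in Bicral (58 PETs, 25.8 kb). Rpl23a met an anchor at Rab34 with 42 PETs in KO and 17 in WT. Between members, Rps18 and Rps28 on chromosome 17 were joined by 9 PETs in KO and 3 in WT over 129 kb. Rpl19 and Rpl23 on chromosome 11 were joined by 5 and 3, over 249 kb. Rpl36al and Rps29 on chromosome 12 had 5 and 1, and Rpl41 and Rps26 on chromosome 10 had 3 in each pool. Rpl3 and Rps19bp1 on chromosome 15 had 6 in KO and 0 in WT, but in WT an anchor at Atf4 that ends just short of Rps19bp1 was joined to Rpl3 by 11 PETs over 177 kb, so where the anchors end decides this count. These are small counts from pools of unequal depth.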

How the data were processed

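The authors deposited 4 count tables, whole numbers of reads per Ensembl gene, not normalised, and 2 bedpe files with counts of PETs between anchors, 1 per genotype. Tools named in the submitters' processing notes are HiC-Pro 2.11.4, HTSeq 0.9.1, HISAT2 2.1.0 and DESeq2 1.18.1, with build mm10; the labels state no annotation release, strand setting or loop caller. Records in no gene, ambiguous, of low quality, unaligned or with several alignments were left out; gene counts were 34.5% to 36.0% of each file.

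The test was edgeR's quasi-likelihood F-test (version 4.0.16, R 4.3.3) with TMM factors, filterByExpr and a genotype term alone, at an FDR of 0.05 over 15517 genes. It was checked on counts simulated gene by gene with a common spread, so shifts of many genes together between libraries were not covered. CPM are counts over the TMM-scaled library size; centred values use log2(CPM + 0.5). DESeq2 1.42.0 and limma 3.58.1 (voom) were alternatives. A fit with 1 library in an arm assumes that it varies like the other group. P-values measure the spread between these libraries. Symbols, spans and promoters came from the supplied RefSeq tables. A gene lay in an anchor if its start site (main) or any base of its span did.

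Members and lists were chosen with earlier results of these data known. Log2 fold changes were given for the 5 highest and 5 lowest members, the 4 with the highest mean CPM, paralogs and members with known roles, contacts for the 5 members with most PETs per pool, and up to 4 genes by smallest p per list. Genes named for their share, and the values of Rpl34, Rps25, Rps23, Rps10 and Rps3a1, were chosen after their values were seen. Some genes are not reported here by name.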

Additional observations from a re-analysis of the deposited data

How the results depend on the processing

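No paired analysis was possible because the KO columns carry letters and no replicate numbers. With 2 libraries a group, leaving out 1 decides the family's result. Members called higher ranged from 0 to 1 and lower from 0 to 25, and the median log2 fold change from -0.75 to 0.07. The difference in the family's share of gene counts (KO minus WT) was -2.18 percentage points and ranged from -4.60 to 0.23. Other normalisations, filters and tools kept the median between -0.39 and -0.36, and it was -0.01 with library size set to the summed member counts, an alternative chosen after seeing the data, as were the summed Rps27 pair and the anchors of both pools. DESeq2 called 1 member lower. With no expression filter, 2 of 27254 genes passed.

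Of the genes on the pathway lists, 2 were called higher and 5 lower in the main test. DESeq2 called 7 and 10, and with no expression filter 0 and 0 passed. Without single libraries the counts ranged from 2 to 12 higher and from 2 to 19 lower.

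Many members changed sign when 1 library was left out, some of them not near 0 in the main fit (Rps27rt 1.11, Rplp1 -0.54). The median over members was 0.07 without WT replicate 2 and -0.39 in the main fit. The members that follow are examples. Ranges were -0.36 to 0.48 for Rpl11, -0.20 to 0.50 for Rpl22l1, -0.013 to 0.82 for Rpl37a, -0.52 to 0.014 for Rpl4, -0.63 to 0.011 for Rpl5 and -0.74 to 0.022 for Rplp0. They were -1.02 to 0.14 for Rplp1, -0.26 to 0.61 for Rps24, -0.15 to 0.054 for Rps27a, -0.14 to 1.78 for Rps27rt and -0.55 to 0.43 for Rps4l. With library size set to the summed member counts, Rpl4 was at 0.093, Rpl5 at 0.037, Rps27a at 0.23 and Rps4l at 0.31. The causes were not tested.

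The share of PETs at member start anchors in WT was 5.54% with starts within 2500 bp, 8.51% over gene spans, 6.84% with at least 2 PETs, 3.43% for loops of at least 20000 bp and 5.66% between anchors of both pools. In KO it was 2.22% over gene spans, 1.69% with at least 2 PETs, 1.68% for loops of at least 20000 bp and 3.26% between anchors of both pools. It was lower in KO in all of these.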
